A study of Mus musculus with 6 samples.

Results

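The tyrosinase family of the mouse consists of *Tyr*, *Tyrp1* and *Dct*, and its 3 members were taken here by mouse gene symbol from 18324 gene rows measured in sorted melanoma cells. RNA came from B16-F10, a mouse melanoma line from ATCC grown in serum-containing medium, with no other treatment named. Cells were sorted on the light scatter of their melanin into high-pigmented cells (HPC) and low-pigmented cells (LPC), and the sort is the only stated difference between the groups. Each group had 3 libraries, and 1 library of each group shared a suffix in its title; these pairs are called set 1 (suffix 16-9-15), set 2 (18-8-14) and set 3 (1-9-14). The labels do not say what the suffix marks, nor that the sets came from separate cultures, so the tests measure the spread between these libraries, which may be technical.

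Tyrosinase, encoded by *Tyr*, is the copper enzyme that oxidises tyrosine to dopaquinone and so starts melanin synthesis. Dopachrome tautomerase (*Dct*) and tyrosinase-related protein 1 (*Tyrp1*) act further along the branch that leads to brown-black eumelanin. The enzymes are membrane proteins of the melanosome, and their genes are known targets of the melanocyte transcription factor MITF, which binds a form of E-box called the M-box in their promoters.

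*Tyr* lies on chromosome 7 (87424771 to 87493512, minus strand, GRCm38) and its main coding transcript has 5 exons, the last of them 4514 nt long. *Tyrp1* lies on chromosome 4 (80834123 to 80851719, plus strand) and *Dct* on chromosome 14 (118012790 to 118052244, minus strand), each with 8 exons. These positions are those of GENCODE vM21; GRCm38 is the build named in the submitters' processing notes. The coding sequences were 55.2% identical between *Tyr* and *Tyrp1*, 56.5% between *Tyr* and *Dct* and 57.7% between *Tyrp1* and *Dct*, and no stretch of at least 100 nt with at least 95% identity joined any members. No exon of another gene overlapped the main transcripts.

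The promoter sequences are shown because the members share a motif there and are read out together below. In the RefSeq windows (GRCm38.p6), which run from 250 bases before to 50 bases after each start site, every member held the M-box core TCATGTG inside the longer run GTCATGTGCT, printed in capitals. The sites lie at chr7:87493516-87493545 (minus strand), chr4:80834155-80834184 (plus strand) and chr14:118052379-118052408 (minus strand).
Tyr: gaaaaagttaGTCATGTGCTttgcagaaga
Tyrp1: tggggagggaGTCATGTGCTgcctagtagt
Dct: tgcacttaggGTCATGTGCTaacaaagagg

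The run began 23 bases before the start site of *Tyr*, 48 before that of *Tyrp1* and 152 before that of *Dct*. *Dct* held a further TCATGTG on the opposite strand, 232 bases before its start and outside any copy of the longer run. Over both strands, TCATGTG was found in 3.77% of 32851 promoter windows of this length and GTCATGTGCT in 61 of them (0.186%); the longer run was chosen after the sequences were seen. The 6-base E-box CATGTG, which lies inside TCATGTG, was in 14.2% of windows. The other E-box searched, CACGTG, was in 7.15% of windows and in none of the members' windows. A match is a description of letters and not evidence of binding.

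The longer upstream context is given for the same reason, up to the start of the GENCODE gene. It covers chr7:87493513-87493762 for *Tyr*, chr4:80833963-80834122 for *Tyrp1* and chr14:118052247-118052496 for *Dct*, each written 5′ to 3′ on the gene's strand. GENCODE starts *Tyrp1* 90 bases before the end of the RefSeq upstream window, so the *Tyrp1* stretch ends before its motif.
Tyr: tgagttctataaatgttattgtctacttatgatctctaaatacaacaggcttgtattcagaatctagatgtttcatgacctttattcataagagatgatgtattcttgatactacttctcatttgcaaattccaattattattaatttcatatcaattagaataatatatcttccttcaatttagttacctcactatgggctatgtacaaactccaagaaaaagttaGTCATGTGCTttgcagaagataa
Tyrp1: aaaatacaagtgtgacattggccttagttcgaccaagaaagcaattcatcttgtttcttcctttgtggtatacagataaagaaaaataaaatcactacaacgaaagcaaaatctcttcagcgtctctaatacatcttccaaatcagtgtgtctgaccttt
Dct: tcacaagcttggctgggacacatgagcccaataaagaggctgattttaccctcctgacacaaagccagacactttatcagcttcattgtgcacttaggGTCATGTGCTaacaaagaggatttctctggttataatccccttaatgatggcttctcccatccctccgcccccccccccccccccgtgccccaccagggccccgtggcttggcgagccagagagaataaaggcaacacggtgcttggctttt

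Gene counts totalled 3819605 to 7311131 per library. Set 2 stood apart: the row RP23-81C12.3 took 53.9% of gene counts in its high-pigmented and 27.1% in its low-pigmented library, against 3.54% to 5.03% elsewhere. The melanocyte identity in the labels was looked at through the family with *Mitf*, *Sox10*, *Pmel* and *Mlana*. These 7 genes summed to 4443 to 20733 CPM in high-pigmented and 6189 to 17282 CPM in low-pigmented libraries. *Dct* alone had 4002 to 14178 CPM, so the sum is no check apart from the family. Outside the family, *Pmel* had 148 to 3624 CPM over the 6 libraries, *Mlana* 64.3 to 583, *Mitf* 29.1 to 325 and *Sox10* 33.2 to 139. CPM are counts relative to a library size scaled by edgeR's TMM method and given per 1000000. Rows were present for 8 of 23 markers of fibroblasts, keratinocytes, leukocytes and endothelium. Their summed levels were highest in the high-pigmented library of set 2, at 33.2 CPM for fibroblast, 24.4 CPM for keratinocyte, 11.6 CPM for leukocyte and 12.2 CPM for endothelial markers; in the other libraries no such sum passed 5.29 CPM. The part of these markers and of RP23-81C12.3 in the values below was not tested.

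*Dct* was the most counted member in each of the 6 libraries, *Tyrp1* came next and *Tyr* was the lowest. Since each transcript gives reads from near its 3′ end, counts do not grow with transcript length, and the comparison between genes needs no division by length, but it depends on how the 3′ ends are annotated. *Dct* made up 82.1%, 96.8% and 88.3% of the family's counts in the high-pigmented libraries of sets 1, 2 and 3 and, in the same order, 80.3%, 95.6% and 90.3% of those in low-pigmented libraries. *Tyr* never exceeded 0.966% of the family, its share in the low-pigmented library of set 1. The lowest *Tyr* share of the family was 0.0264%, in the low-pigmented library of set 3 (exact 95% binomial interval 0.0185% to 0.0366%, which covers counting error only).

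*Tyr*, the enzyme gene that starts the pathway, had 502, 2 and 277 counts in the high-pigmented libraries of sets 1, 2 and 3, or 81.7, 1.16 and 32.4 CPM. The low-pigmented libraries had 507, 20 and 36 counts, or 83.8, 5.72 and 3.78 CPM. Both libraries of set 1 were high, both of set 2 were low, and those of set 3 differed from each other, so the groups overlapped throughout their range. The means were 38.4 ± 40.6 CPM and 31.1 ± 45.6 CPM (SD, n = 3 each), and the log2 fold change of high- over low-pigmented cells was 0.32 ± 1.39 (SE). Its adjusted p was 0.9996 by the quasi-likelihood test of edgeR, with p values adjusted by Benjamini-Hochberg over all genes tested. The 95% interval of this fold change ran from 0.136 to 11.4, so the data do not show that *Tyr* was equal in the groups. Only 3.88% of the genes tested had a larger SD of log2 CPM over the 6 libraries than *Tyr*.

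*Tyrp1*, whose product acts late in eumelanin synthesis and is thought to stabilise tyrosinase, had 1613, 132 and 1852 CPM in the high-pigmented libraries of sets 1, 2 and 3. The low-pigmented libraries had 1628, 252 and 1389 CPM. The libraries of sets 1 and 3 lay close together and both libraries of set 2 lay far below them, in either group. The means were 1199 ± 932 CPM and 1090 ± 735 CPM (SD, n = 3 each), and the groups overlapped. The log2 fold change was 0.14 ± 0.94 (SE), with an adjusted p of 0.9996 in edgeR. The 95% interval of the fold change was 0.246 to 4.93.

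*Dct*, which converts dopachrome to its carboxylated indole product, had 7768, 4002 and 14178 CPM in the high-pigmented libraries of sets 1, 2 and 3. The low-pigmented libraries had 6960, 5544 and 12907 CPM. The order of the sets was the same in both groups, with set 3 highest and set 2 lowest, and the groups overlapped. The means were 8649 ± 5145 CPM and 8471 ± 3907 CPM (SD, n = 3 each). High- over low-pigmented cells gave 0.030 ± 0.58 on the log2 scale (SE; adjusted p = 0.9996, edgeR), and the 95% interval of the fold change was 0.408 to 2.56. In sorted bulk cells, fewer cells making a transcript and less of it per cell cannot be told apart.

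**Figure D1:**
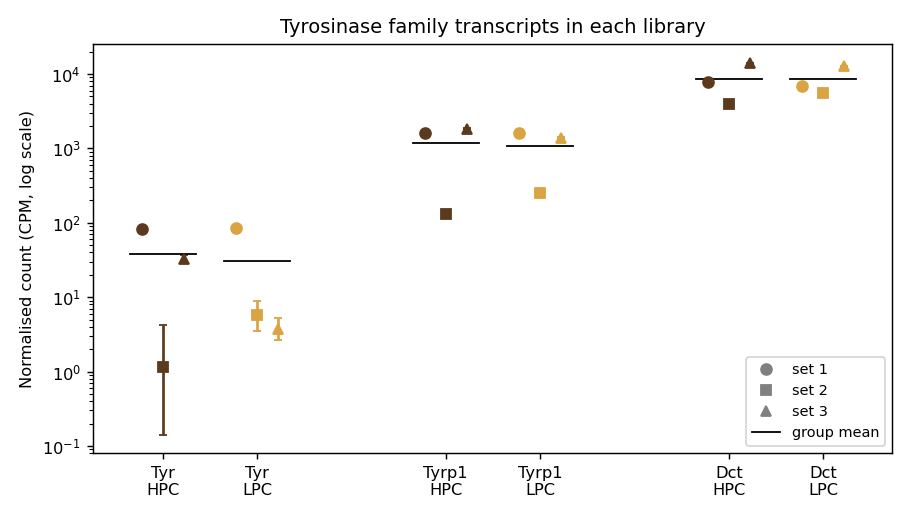
Normalised counts of *Tyr*, *Tyrp1* and *Dct* (CPM, log axis) in each library, with the set shown by the symbol and the sorted group by the colour. Bars are exact 95% Poisson intervals for counting error and black lines are group means; *Tyr* ranges from 1.16 to 83.8 CPM, while *Dct* stays between 4002 and 14178 CPM.

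None of the 3 members passed an adjusted p under 0.05, and neither did any of the 11324 genes tested, so the background share called was 0%. At an unadjusted p under 0.05 edgeR had 38 genes (0.336%) and DESeq2, which also called 0 genes (0%), had 134 (1.18%); no member was among the 38. The set was taken as the pairing of the libraries, whose deviations from the group means correlated within every pair. With the set as a block edgeR called 0 genes too (0%), with 229 (1.89%) at an unadjusted p under 0.05. With that block the log2 fold changes were 0.58 ± 1.06 (SE) for *Tyr*, -0.17 ± 0.29 for *Tyrp1* and -0.060 ± 0.17 for *Dct* (adjusted p = 0.944, 0.944 and 0.955, edgeR).

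For each member, libraries of the same group differed more than the group means did. From the lowest to the highest library, *Tyr* spanned 70.2-fold within the high-pigmented and 22.2-fold within the low-pigmented group. *Tyrp1* spanned 14.1-fold and 6.46-fold, and *Dct* 3.54-fold and 2.33-fold, in the same order. The spread within a group thus fell from *Tyr* to *Tyrp1* to *Dct*, the reverse of their order by level.

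All members were lower in set 2 than the mean of sets 1 and 3 on the log2 CPM scale (prior count 2). In high-pigmented libraries the difference was -5.11 for *Tyr*, -3.71 for *Tyrp1* and -1.39 for *Dct*, where the median gene tested had -0.43. In low-pigmented libraries it was -1.62 for *Tyr*, -2.58 for *Tyrp1* and -0.77 for *Dct*, where the median gene had -0.14. Of all genes tested, 5.66%, 14.7% and 32.9% were lower still in the high-pigmented library than *Tyr*, *Tyrp1* and *Dct*, and 17.5%, 10.0% and 32.4% in the low-pigmented one. RP23-81C12.3 and the mitochondrial ribosomal RNA rows moved with set 2. Of the gene counts without these rows, *Tyr* made up 0.0115%, 0.000155% and 0.00451% in high-pigmented libraries of sets 1, 2 and 3. *Tyrp1* made up 0.228%, 0.0175% and 0.258%, and *Dct* 1.10%, 0.531% and 1.98%. In low-pigmented libraries the shares were 0.0117%, 0.000641% and 0.00052% for *Tyr*. They were 0.228%, 0.0282% and 0.191% for *Tyrp1* and 0.973%, 0.622% and 1.78% for *Dct*. The part of these rows in the low levels of set 2 was not tested.

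Sets 1 and 3 differed in *Tyr* most. On the log2 scale *Tyr* was higher in set 1 than in set 3 by 1.33 in high-pigmented and by 4.35 in low-pigmented libraries, and 9.04% and 0.274% of genes had a larger excess. *Dct* went the other way in both groups, at -0.87 and -0.89, and *Tyrp1* differed by -0.20 and 0.23. The members therefore did not share 1 order of the sets: *Tyr* was highest in set 1 and *Dct* in set 3, in either group.

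Within sets, the ratio of high- to low-pigmented cells was close to 1 for every member in set 1. It was 0.975 for *Tyr* (exact 95% interval 0.860 to 1.11), 0.991 for *Tyrp1* (0.963 to 1.02) and 1.12 for *Dct* (1.10 to 1.13). These intervals, and those that follow, cover counting error only, and with 1 library of each group per set there is no test. In set 1, 7.67% of genes tested differed by at least 2-fold in either direction, and no member did.

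In set 2 every member was lower in high-pigmented cells. *Tyr*, with 2 counts against 20, had a ratio of 0.204 (0.0231 to 0.838). The ratio was 0.522 for *Tyrp1* (0.449 to 0.605) and 0.722 for *Dct* (0.702 to 0.742). Of genes tested, 51.9% differed by at least 2-fold in this set in either direction and 32.5% were lower in high-pigmented cells by that much, and 21.7% of genes lay lower than *Tyr*. Scaling by library totals alone moved the log2 differences of *Tyrp1* and *Dct* in set 2 from -0.94 to -1.63 and from -0.47 to -1.17.

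In set 3 *Tyr* stood far from the other members. Its 277 counts against 36 gave a ratio of 8.57 (6.04 to 12.5), while *Tyrp1* had 1.33 (1.30 to 1.36) and *Dct* 1.10 (1.09 to 1.11). In set 3, 9.64% of genes tested differed by at least 2-fold in either direction and 4.91% were higher by that much, and 0.132% of genes had a larger log2 difference than the 2.99 of *Tyr*. The log2 difference of *Tyr* in set 3 stayed between 2.99 and 3.07 under the other scalings and a prior count of 0.5. The same gene had -0.037 in set 1 and -2.01 in set 2, so the set 3 value has no replicate with its direction.

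**Figure D2:**
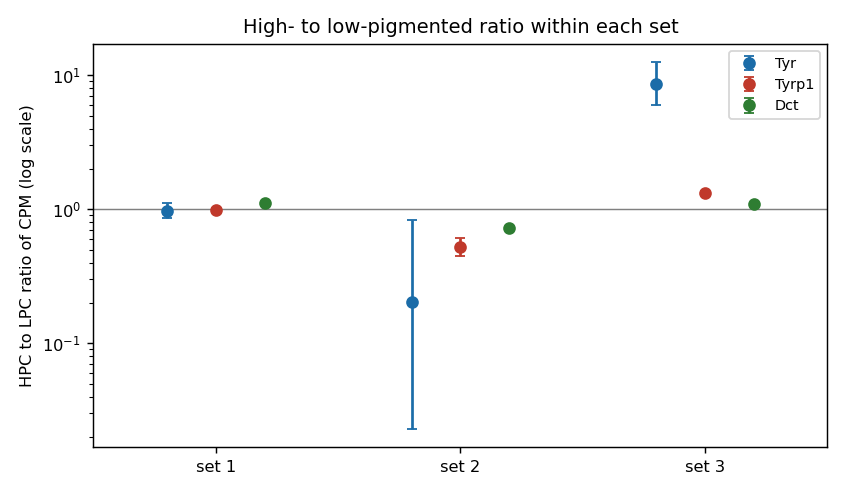
Ratio of CPM in high- over low-pigmented cells (log axis) for *Tyr*, *Tyrp1* and *Dct* in each of the 3 sets, with exact 95% intervals for counting error. In set 1 the ratios lie close to 1, in set 2 all lie below 1, and in set 3 *Tyr* reaches 8.57.

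Ratios of 1 member to another within a library need no library size, so the scaling of set 2 does not enter them. Whether other traits of the set 2 libraries moved these ratios was not tested. There were 10.5, 0.291 and 2.28 *Tyr* counts per 1000 *Dct* counts in the high-pigmented libraries of sets 1, 2 and 3. The low-pigmented libraries had 12.04, 1.03 and 0.293. The ratio was highest in both libraries of set 1, and the lowest values were in different sets in the different groups. Its log2 mean was -8.92 ± 2.43 in high-pigmented and -9.33 ± 2.72 in low-pigmented cells (SD, n = 3 each; 0.5 added to each count), a difference of 0.40 that lay within the spread.

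*Tyrp1* and *Dct* stayed closer together. There were 208, 32.9 and 131 *Tyrp1* counts per 1000 *Dct* counts in the high-pigmented libraries of sets 1, 2 and 3. In low-pigmented libraries there were 234, 45.4 and 108. The order of the sets was the same in both groups, with set 1 highest and set 2 lowest. The log2 mean was -3.38 ± 1.38 and -3.26 ± 1.18 (SD, n = 3 each), a difference of -0.12. Over the 6 libraries the *Tyrp1* to *Dct* ratio ranged 7.10-fold, against 40.6-fold for *Tyr* to *Dct* and 18.7-fold for *Tyr* to *Tyrp1*.

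**Figure D3:**
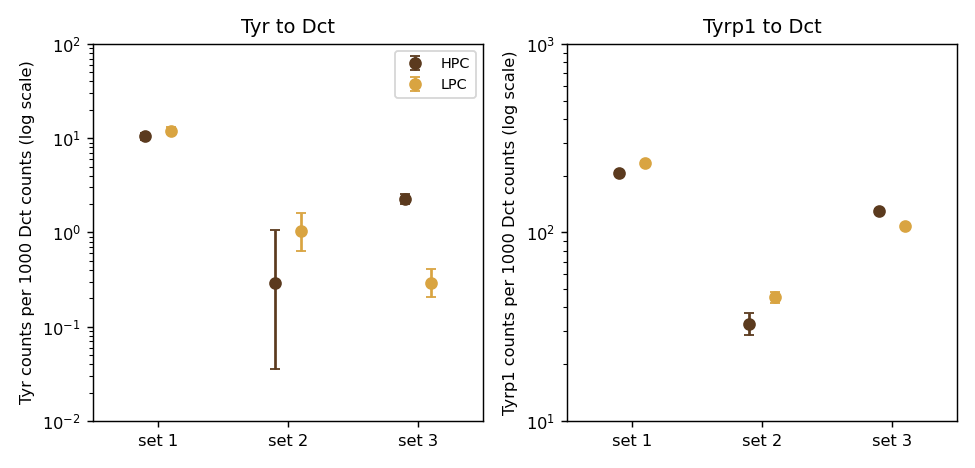
Counts of *Tyr* (left) and *Tyrp1* (right) per 1000 *Dct* counts of the same library (log axes) in each set, by sorted group, with exact 95% intervals for counting error. The *Tyrp1* ratio follows the set in both groups (208 and 234 in set 1, 32.9 and 45.4 in set 2), while the *Tyr* ratio differs between the groups in set 3 (2.28 against 0.293).

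The genes upstream of the family, a list of 21 transcription and signalling genes, had 20 rows and 16 genes tested, of which 0 passed in either direction (background 0%; 0 at an unadjusted p under 0.05). The list's median change was 0.014 on the log2 scale, beside -0.038 over all genes tested. In high-pigmented cells 8 of 16 were higher, beside 5326 of the 11324 genes tested. *Mitf*, the lineage regulator that binds the M-box, had 153, 29.1 and 325 CPM in the high-pigmented libraries of sets 1, 2 and 3. The low-pigmented libraries had 114, 38.3 and 300.2 CPM, in the same order of sets as *Dct*. *Sox10*, *Pmel* and *Mlana* had that order in both groups too, so it is not particular to *Mitf* and *Dct*. The log2 fold change of *Mitf* was 0.17 ± 0.91 (SE). *Sox10*, which encodes a neural crest transcription factor that acts on *Mitf* and *Dct*, had a log2 fold change of 0.10 ± 0.53. The genes of this list nearest to the threshold encode acetyltransferase coactivators, *Crebbp* with a log2 fold change of -1.45 ± 0.86 and *Ep300* with one of -0.62 ± 0.45. Within sets 1, 2 and 3 the log2 differences of *Crebbp* were -0.43, -1.68 and -1.16, and each of these genes had an adjusted p of 0.9996 in edgeR's test. Without the low-pigmented library of set 2, *Crebbp* had -0.15 and *Ep300* -0.32. With the set as a block, *Crebbp* was the 1 gene of 16 at an unadjusted p under 0.05 (-1.10 ± 0.31), beside 1.89% of all genes. Its adjusted p was 0.944 in edgeR.

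Of 13 melanosome structure and pigment channel genes, 11 were tested and 0 passed (0 at an unadjusted p under 0.05). Their median change was 0.59 on the log2 scale. A higher fitted level in high-pigmented cells was found for 9 of 11, beside 5326 of the 11324 genes tested. The medians within sets 1, 2 and 3 were 0.60, 0 and 0.55, beside 0.016, -0.20 and -0.0024 for all genes tested. The 0 of set 2 is also the value of a gene without counts in either library of the set, so it does not show equal levels. *Pmel*, the gene of the melanosome fibril protein, changed by 0.71 ± 1.06 (log2 ± SE) and *Mlana*, a melanosome membrane protein gene, by 0.23 ± 0.83. *Oca2*, which encodes a melanosomal chloride channel, had 10.4, 8.15 and 33.3 CPM in high-pigmented and 1.98, 3.43 and 11.9 CPM in low-pigmented libraries of sets 1, 2 and 3, a log2 fold change of 1.58 ± 0.95. Without the high-pigmented library of set 3 the change of *Oca2* was 0.67. The protease gene *Mmp14* had -0.71 ± 0.54, and -0.21 without the low-pigmented library of set 2. Each of these genes had an adjusted p of 0.9996 in edgeR's test. With the set as a block, 3 of the 11 genes (*Oca2*, *Slc45a2* and *Gpnmb*) were at an unadjusted p under 0.05, beside 1.89% of all genes. Of the 11, 0 passed after adjustment. *Oca2* had 1.70 ± 0.58 in that fit (adjusted p = 0.944, edgeR).

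Trafficking genes, which carry the enzymes to the melanosome, had 25 of 27 genes tested, with 0 passing (0 at an unadjusted p under 0.05), a median of 0.081 and 15 of 25 higher. Nearest to the threshold were genes for subunits of the trafficking complexes, *Hps1* with a log2 fold change of 1.56 ± 1.30 and *Hps3* with one of 0.55 ± 0.51. *Hps1* had 0 CPM in the low-pigmented library of set 2. Its log2 differences within sets 1, 2 and 3 were -0.56, 5.67 and 1.62, so the sets differed in direction. *Hps1* had 0.60 with sets 1 and 3 only and the block, and *Hps3* 0.10 without the high-pigmented library of set 3. For copper, folding and substrate supply, 19 of 20 genes were tested and 0 passed (0 at an unadjusted p under 0.05), with a median of 0.022 and 10 of 19 higher. Beside both lists, 5326 of the 11324 genes tested were higher. *Calr*, the gene of the chaperone calreticulin, which takes part in glycoprotein folding, had 1471, 1341 and 1449 CPM in high-pigmented and 1806, 4753 and 1527 CPM in low-pigmented libraries of sets 1, 2 and 3. Its groups did not overlap, as in 5.74% of genes tested, and its log2 fold change was -0.92 ± 0.50 (adjusted p = 0.9996, edgeR). The amino acid transporter gene *Slc7a5* had -0.76 ± 0.48. Without the low-pigmented library of set 2 these changes were -0.23 for *Calr* and -0.32 for *Slc7a5*. With the set as a block, both this list and the trafficking list again had 0 genes at an unadjusted p under 0.05.

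With set 2 left out and the set as a block, edgeR called 155 of 11906 genes (1.3%). Higher calls in high-pigmented cells numbered 111 (0.932%) and lower calls 44 (0.37%). None of the 3 family members was among them. The change was 0.19 ± 0.12 (log2 ± SE, adjusted p = 0.587) for *Tyrp1* and 0.14 ± 0.11 (adjusted p = 0.692) for *Dct*. The 95% intervals of the fold change were 0.957 to 1.36 for *Tyrp1* and 0.942 to 1.28 for *Dct*. *Tyr* had 1.20 ± 1.40 (adjusted p = 0.878, edgeR), with the sets far apart. The 95% interval of its fold change ran from 0.000915 to 5769, so this fit says almost nothing about *Tyr*.

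In that fit 5 of the 11 melanosome structure and channel genes were called higher, beside 0.932% of all genes, and 0 lower. They were named after their values were seen. The fit has 2 libraries in each group, so their small standard errors rest largely on the spread that edgeR shares across genes. They are not a measure of agreement between many replicates. *Pmel* rose by 0.74 ± 0.11 (log2 ± SE; adjusted p = 0.000811, edgeR) and *Gpnmb*, a melanosome glycoprotein gene related to it, by 0.64 ± 0.12 (0.00482). The transporter gene *Slc45a2* rose by 0.76 ± 0.13 (0.00281), *Oca2* by 1.80 ± 0.35 (0.00858) and the protease gene *Bace2* by 1.04 ± 0.17 (0.00148). Set 2, which this fit leaves out, had the same direction for *Gpnmb*, *Slc45a2* and *Oca2* (log2 differences of 0.14, 0.85 and 1.17) and the opposite for *Pmel* and *Bace2* (-0.58 and -0.96). No gene of the other lists was called. Whether these genes changed more than the family did was not tested.

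**Figure D4:**
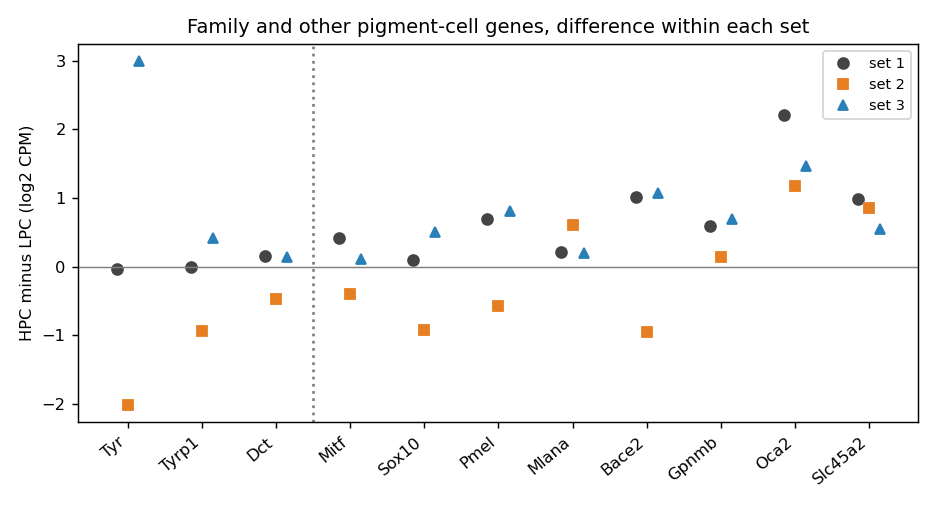
Differences in log2 CPM between high- and low-pigmented cells within each set, for the family (left of the dotted line) and for other pigment-cell genes. *Oca2*, *Slc45a2*, *Gpnmb* and *Mlana* lie above 0 in each set, while *Tyr* has -0.037, -2.01 and 2.99. *Oca2*, *Slc45a2*, *Gpnmb* and *Bace2* are drawn because they were called higher with sets 1 and 3 only. Their place above 0 in those sets was thus set by the choice.

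The genes with the most similar pattern to each member were sought among 7779 genes averaging at least 10 CPM, by the root mean square difference between profiles of log2 CPM over the 6 libraries, each centred on its own mean. For *Dct* they were *Tmem176b* at 0.10, *Tnks2* (tankyrase 2) at 0.11 and *Phpt1* (phosphohistidine phosphatase) at 0.13, where the median gene was at 0.85. For *Tyrp1* they were *Trmt1l* at 0.23, *Rasa3* at 0.26 and *Cramp1l* at 0.27, where the median gene was at 1.52. For *Tyr* even the nearest genes were far off, *Anln* (anillin) at 0.69, *Fam161b* at 0.81 and *Tubb3* (a beta-tubulin) at 0.91, where the median gene was at 2.20. *Anln* had 34.5, 0 and 3.51 CPM in high-pigmented and 43.5, 1.43 and 0.630 CPM in low-pigmented libraries of sets 1, 2 and 3, so it rests on few counts in sets 2 and 3. With a prior count of 0.5 *Anln* was at 1.03, farther than *Fam161b* (0.81) and *Tubb3* (0.94).

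The members were not each other's nearest neighbours. *Tyrp1* was at 1.41 from *Tyr*, ranking 139 among genes by distance from it, and at 1.05 from *Dct*. The distance between *Tyr* and *Dct* was 2.08. Seen from *Dct*, *Tyrp1* ranked 5178 and *Tyr* 7491 among the 7779 genes, both farther than the median gene. Seen from *Tyrp1*, *Dct* ranked 1123 and *Tyr* 3156, both nearer than the median gene. The distance is not scaled for the size of the swings, so from *Dct*, which varied least of the members, genes with larger swings lie far even where they move the same way. *Pmel* was nearer to *Tyrp1* than either other member was, at 0.43, and *Sox10* was near to *Dct*, at 0.24. These distances share libraries and the low values of set 2.

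The deposited table also has a column of human symbols, in which *Dct* is listed under TYRP1 and no row under DCT. Summed by that column, TYRP1 would have 9381, 4133 and 16030.0 CPM in high-pigmented and 8589, 5796 and 14296 CPM in low-pigmented libraries of sets 1, 2 and 3. Of these counts *Dct* makes up 81.04% to 96.8%, so a reading by human symbol would give the values of *Dct* under the name of *Tyrp1*.

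Shared sequence touches the members unevenly. The main *Dct* transcript had no stretch of at least 100 nt at 95% identity with another gene; its other annotated transcripts, which are non-coding, had such stretches with 74 genes, 48 of them rows of the table. The main *Tyrp1* transcript shared 215 nt with *Gm45386*, ending 834 nt or more from its 3′ end, and *Gm45386* is not a row of the table. *Tyr* shared at most 167 nt with 3 genes, at 3200 nt or more from its 3′ end and on the opposite strand. Whether counting used the strand is not given in the sources used here.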

How the data were processed

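Libraries were made from total RNA of sorted cells with a 3′-end mRNA kit (QuantSeq forward), per the labels' protocols. The authors deposited 1 table of raw read counts, not normalised, which its name and tally rows ascribe to HTSeq. STAR and GRCm38 are named in the submitters' processing notes. Versions, annotation and counting mode are not given in the sources used here. The tally rows (no feature, 12.4% to 29.5% of tallied reads; ambiguous, 0.487% to 2.51%) were left out.

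The test was the robust quasi-likelihood fit of edgeR 4.0.16 (R 4.3.3), with group as the only term, TMM scaling, genes kept by filterByExpr (minimum count 10) and Benjamini-Hochberg adjustment over 11324 genes. Standard errors come from the test statistic. DESeq2 1.42.0, other scalings, no filter, the set as a block, sets 1 and 3 alone and the omission of single libraries served as alternatives. The fits were also run on simulated counts that gave every gene the same spread, which does not show how they perform on these data. Libraries of the same set deviated together from their group means (correlations across genes of 0.466, 0.316 and 0.422, each above 0.1). The set was taken as the pairing. Correlations between different sets are not given here, so those within sets cannot show the pairing alone. Every pair of libraries differed beyond sampling noise, with a chi-square of 13.5 or more per degree of freedom. It was 13.5 and 20.7 within sets 1 and 3, against 57.1 or more between libraries of different sets. Within set 2 it was 123, against 199 or more between a set 2 library and one of another set.

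The members, gene lists, rules and alternatives were chosen with earlier results of these data known. Besides the family, the naming rule took *Mitf*, *Sox10*, *Pmel*, *Mlana*, the 2 genes with the smallest unadjusted p in each of 4 lists and the 3 genes most like each member. Shared stretches were found with blastn 2.17.0. Promoters are from RefSeq (GRCm38.p6), where the 3 members matched by symbol. Molecular identifiers are not mentioned in the labels, so counting intervals do not cover copies of a molecule.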

Additional observations from a re-analysis of the deposited data

Results flagged for a closer look

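*Tyr* moved in opposite directions in different sets. Its log2 difference between high- and low-pigmented cells was -2.01 in set 2 and 2.99 in set 3, and the exact 95% counting intervals of the ratios lay on opposite sides of 1 (0.0231 to 0.838 and 6.04 to 12.5). The difference between the sets was not tested, because each set has 1 library of each group. The set 2 value rests on 2 and 20 counts, and in that set 51.9% of genes tested differed by at least 2-fold, against 9.64% in set 3.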

How the results depend on the processing

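The count of 0 genes held with RLE size factors, library totals alone, no filter, the dominant rows left out, DESeq2, the replicate block and without each single library, and moved to 155 with sets 1 and 3 only and the replicate block, where the melanosome structure and channel list had 5 calls; the other lists had 0 in every fit. No fit called a family member. With the replicate block the log2 fold changes reversed to -0.17 for *Tyrp1*, -0.060 for *Dct* and -0.088 for *Sox10*, and with sets 1 and 3 only *Mmp14* reversed to 0.10.

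Leaving out single libraries moved *Tyr* from -0.86 to 3.05, *Tyrp1* from -0.33 to 0.67 and *Dct* from -0.54 to 0.48. *Tyr* reversed without the high-pigmented library of set 1 (-0.86) or the low-pigmented library of set 2 (-0.17) or 3 (-0.21). *Tyrp1* reversed without the high-pigmented library of set 1 (-0.14) or 3 (-0.33) or the low-pigmented library of set 2 (-0.33). *Dct* reversed without the high-pigmented library of set 3 (-0.54) or the low-pigmented library of set 1 (-0.089) or 2 (-0.20). The ranges of *Mitf* (-0.73 to 1.16), *Sox10* (-0.43 to 0.48), *Pmel* (-0.069 to 1.35), *Mlana* (-0.25 to 0.71), *Bace2* (-0.026 to 1.26) and *Gpnmb* (-0.16 to 1.33) also crossed 0. The causes were not tested. The log2 count ratios, high- minus low-pigmented, also crossed 0 when single libraries were left out, over -0.79 to 1.88 for *Tyr* to *Dct*, -0.72 to 0.65 for *Tyrp1* to *Dct* and -0.69 to 1.42 for *Tyr* to *Tyrp1*, each within the larger of the group SDs from its value over all libraries. *Crebbp* ranged from -2.21 to -0.15, *Ep300* from -0.87 to -0.32, *Calr* from -1.20 to -0.23, *Slc7a5* from -1.06 to -0.32 and *Oca2* from 0.67 to 2.70. With 2 counts of *Tyr* in the high-pigmented library of set 2, depth limits that value.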
